A study of Mus musculus with 24 samples.

Results

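The m6A peaks described here were called in B16-OVA melanoma cells with a hairpin against Fto (shFto) and met no peak of 2 further lists. They were chosen by which peaks the lists held, a measured result: peaks of the shFto list were kept if no base of their blocks was covered, on the same strand, by a peak of the list from Dac51-treated control cells or by one of the list from DMSO-treated control cells. In this way 2049 of 10811 shFto peaks (18.95%) were taken, out of 29140 peaks in the 3 lists together, and they lay in 1803 genes. Their enrichment and significance are therefore given as a description, with no test.

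B16-OVA is a mouse melanoma line of C57BL/6 background that carries the ovalbumin antigen, grown with puromycin. For m6A-seq, RNA fragments bound by an m6A antibody were compared with input RNA, in 3 conditions of 1 antibody library each: shFto cells in DMSO, cells with the control hairpin (shNC) given 5 µM Dac51, and shNC cells in DMSO, all for 48 h. Dac51 is a compound given by its code name, with no target in the labels. RNA-seq of 3 shFto and 3 shNC libraries of the same melanoma line, which the choice of peaks did not use, gave the RNA level of each gene. No DMSO treatment or time is recorded for these RNA libraries, so they may differ from the m6A-seq cells in that respect. The labels do not say which of the Fto hairpins these cells carried, or that the libraries of a group were separate cultures, so p-values measure no more than the spread among libraries, and that may be technical. In bulk RNA, fewer cells of a type and less RNA per cell cannot be told apart.

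N6-methyladenosine (m6A) is a methyl mark on adenosines inside messenger RNA. A writer complex around METTL3 and METTL14 adds it, the enzymes FTO and ALKBH5 remove it, and reader proteins of the YTH family bind it and affect the decay, translation or splicing of the transcript. It is known to lie mostly near stop codons and in 3′ untranslated regions, in a short consensus of which GGACT is a common form. FTO also acts on the methylated adenosine next to the cap, at the first transcribed base.

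The RNA totals were 18330689, 11152404 and 19665589 counts in the shFto libraries and 13413981, 17406625 and 14671458 in the shNC libraries. Fto itself lay at 31.7, 33.5 and 28.3 CPM (counts per library size scaled with TMM) in shFto and at 107, 108 and 91.8 CPM in shNC cells, and fell by 1.72 on the log2 scale (SE 0.0979; adjusted p = 1.6e-10, edgeR quasi-likelihood test). For the cell type markers alone, CPM are per raw library total, without TMM. The 7 melanocytic markers (Mlana, Pmel, Tyr, Tyrp1, Dct, Sox10, Mitf) were all above 10 CPM, and together made 17720 to 18720 CPM in shFto and 14210 to 14820 CPM in shNC libraries. Of 7 leukocyte markers, 5 had no counts in any library, Ptprc, Cd3e, Cd3d and Cd8a among them, and all 7 together made at most 0.109 CPM in a shFto and 0.0682 CPM in a shNC library. The 4 fibroblast and endothelial markers together made 2.898 to 4.31 CPM in shFto and 5.917 to 8.126 CPM in shNC libraries. The Fto gene had 1 peak in each list and none that was shFto-only.

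The sequences that could be read beneath the shFto-only peaks were those at transcription starts, shown because the cap-adjacent base that FTO also acts on lies there. RefSeq promoter windows (build GRCm38.p6, the same assembly as the lists' mm10) placed a transcription start inside 30 of the 2049 peaks (1.46%), against 3.95% of Dac51-only, 1.05% of shNC-only and 1.37% of the other shFto peaks. Shown first are 4 of the most significant of them outside predicted genes with the same gene name in both sources, then 2 of the 3 whose first 50 transcribed bases held GGACT. Each line runs 5′ to 3′ from 10 bases before the start over the first 30 transcribed bases, and capitals mark the first transcribed base and GGACT.
Hps4 (plus strand, chr5:112343085-112343124): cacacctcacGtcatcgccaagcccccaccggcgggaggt
Abt1 (minus strand, chr13:23423837-23423876): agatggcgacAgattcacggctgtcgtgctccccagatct
Kdm5c (plus strand, chrX:152233217-152233256): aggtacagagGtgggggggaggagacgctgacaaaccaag
Arpp19 (plus strand, chr9:75037722-75037761): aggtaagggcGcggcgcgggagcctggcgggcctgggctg
Wdtc1 (minus strand, chr4:133339286-133339325): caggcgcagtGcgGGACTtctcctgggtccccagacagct
Gdf1 (plus strand, chr8:70329755-70329794): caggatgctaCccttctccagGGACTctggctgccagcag
Only Abt1, which encodes a transcription and ribosome biogenesis factor, has an A at the listed start among these. Over all 30 windows the first base was A in 9 (30%, exact 95% interval 14.7 to 49.4%), against 34.4% of all 32851 promoters in the table. GGACT was found on the RNA strand of 3 windows (10%), against 5.76% of all promoters, and on the opposite strand of 0 windows, against 4.87%. The shorter GGAC, which GGACT contains, was in 6 windows (20%) on the RNA strand and in 6 on the opposite one, against 18.9% of all promoters on the RNA strand and 17.4% on the opposite one. At 30 windows, the interval of the share starting with A holds that of all promoters. Gdf1 overlaps a shFto-only peak given to Cers1, so that place was counted under both gene names.

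Another 3 shFto-only peaks covered all or part of a microRNA hairpin, of the 1005 in RefSeq. The mature sequences, from RefSeq, are shown because the microRNA processing factor Dgcr8 is itself one of the hosts, with the seed, bases 2 to 8, in capitals.
mmu-miR-6340: gUCAGCAGcagcuucgcuuuggc
mmu-miR-678: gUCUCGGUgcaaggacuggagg
mmu-miR-3618-3p: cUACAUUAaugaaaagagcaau
mmu-miR-3618-5p: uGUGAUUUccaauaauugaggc
None of these seeds is shared. The peak named Mir6340 (chr2:173701030-173701148) covered 119 of 119 hairpin bases at 2.64-fold enrichment, and the peak in the arginine methyltransferase gene Prmt2 (chr10:76207226-76207404) covered 79 of the 84 bases of Mir678 at 7.29-fold. The peak in Dgcr8 (chr16:18284462-18284582), at 2.36-fold, covered 33 of the 88 bases of the hairpin of miR-3618. These were at the 3′ end of the hairpin, the side of miR-3618-3p and not of miR-3618-5p. Dgcr8 RNA was at 72.8 ± 3.65 CPM in shFto and 58.8 ± 1.29 CPM in shNC cells (SD, n = 3 each), a log2 difference of 0.31 (SE 0.085, edgeR adjusted p = 0.00902).

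The shFto-only peaks were short and weak beside the rest of their list. Their median enrichment of antibody over input, as the authors' peak caller gave it, was 3.06-fold (quartiles 2.04 and 7.29), against 7.07-fold for the other 8762 shFto peaks. The median log10 FDR (false discovery rate, lower being more significant) was -3.03 against -28.0, and the median length over exon blocks was 121 against 356 bases. The weakest shFto-only peak had a log10 FDR of -1.31 and the strongest one of -31.2, and 1043 of them (50.9%) stood at -3 or lower, against 94.38% of the other shFto peaks. The 1191 Dac51-only peaks had a median of 2.33-fold and a log10 FDR of -3.3, and the 763 shNC-only peaks a median of 2.7-fold and -2.5. Peaks found in 1 list alone thus had low medians in all 3 conditions. The shFto list was also the longest, with 10811 peaks against 9850 for Dac51 and 8479 for shNC, and the read depth behind the lists is unknown. When the lists were trimmed to equal length by significance, the order of the classes turned, with 832 shFto-only, 795 Dac51-only and 1028 shNC-only peaks.

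**Figure D1:**
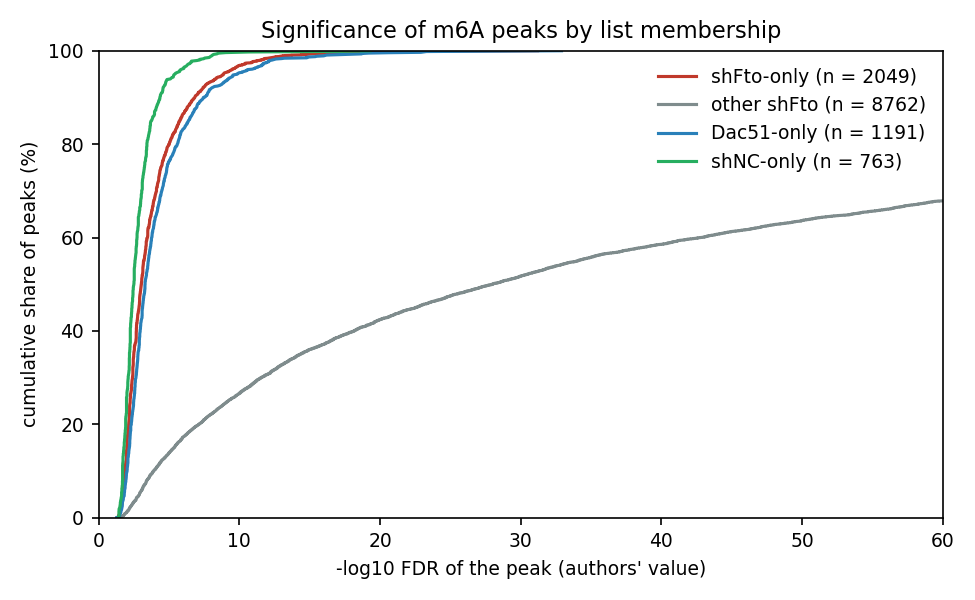
Cumulative share of peaks (y, in percent) by -log10 FDR as the peak caller gave it (x), for peaks found in 1 list alone and for the other shFto peaks. The 3 single-list curves lie at low values, shNC-only the lowest with a median log10 FDR of -2.5, Dac51-only with -3.3 and shFto-only between them, with a median log10 FDR of -3.03, while the other shFto peaks have a median of -28.0.

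Enrichment ran against the RNA level of the gene. In the lowest quartile of RNA level (0.576 to 11.3 CPM), the median was 8.14-fold at a log10 FDR of -2.68. In the highest quartile (91.7 to 5774 CPM) it was 1.93-fold at a log10 FDR of -3.25, so smaller enrichments stood in the list there. The highest enrichment, 84.9-fold, was in the Golgi ceramidase gene Acer2, whose RNA averaged 16.99 CPM in shFto and 13.49 CPM in shNC cells, in the second quartile. The lowest was in Tyrp1, a melanosome enzyme gene listed with 1.13-fold enrichment at a mean of 6586 CPM in shFto.

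**Figure D2:**
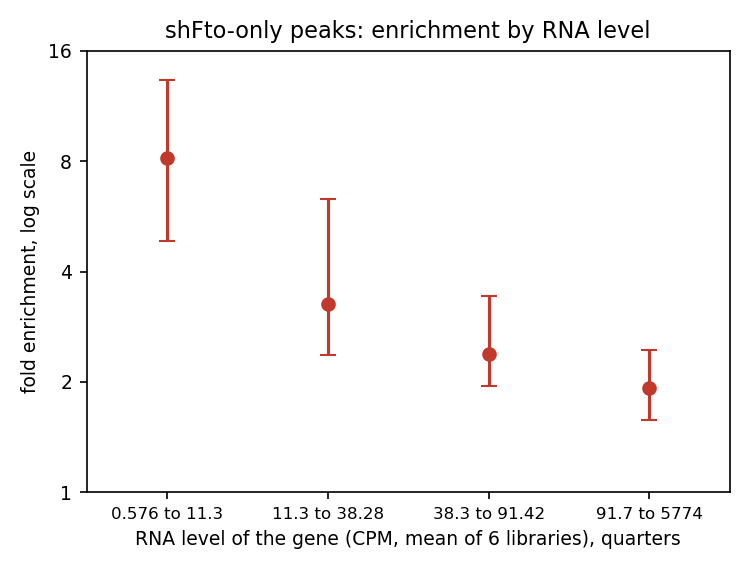
Median fold enrichment of shFto-only peaks (points; bars are quartiles; log scale) by quartile of the RNA level of their gene in CPM, mean of 6 libraries. The median falls with RNA level, with 8.14-fold in the lowest and 1.93-fold in the highest quartile.

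At the edge of the rule, small shifts of a boundary decided membership. Of the peaks kept, 35 lay fewer than 31 bases from a peak of another list, and 110 fewer than 100. The nearest case was Gm20605, at a gap of 1 base, followed outside predicted genes by Pcdha4 with 15 bases (log10 FDR -1.74) and Gdf1 with 27 (-2.31). Just outside, 66 shFto peaks were left out for an overlap of a single base, among them one in Dst (log10 FDR -8.23, 2.27-fold), one in Mfsd6 (-3.71, 2.74-fold) and one in Rgs2 (-2.54, 6.29-fold). The median gap to the nearest same-strand peak of another list was 10365 bases, and 688 peaks (33.58%) lay closer than 1000 bases to one. The 2049 peaks held 1994 separate places, because some sat under 2 gene names, and 57 (2.78%) were overlapped by a shFto peak on the opposite strand. An example is Mat2a, the methionine adenosyltransferase gene, whose peak (chr6:72439469-72439558) lies within that of the opposite-strand gene Particl. Which strand such reads came from cannot be told apart here.

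By position, the shFto-only peaks lay nearer to the 3′ ends of genes than peaks of the other classes. Of 2044 peaks placed on a gene, 680 (33.27%, exact 95% interval 31.23 to 35.36%, counting error only) ended within 1 kb of the gene's 3′ end. The share was 25.82% of Dac51-only peaks (23.35 to 28.41%), 21.65% of shNC-only peaks (18.78 to 24.75%) and 24.51% of the other shFto peaks (23.61 to 25.42%). Their median distance from that end was 2007 bases, against 3080 for Dac51-only, 3399.5 for shNC-only and 2630 for other shFto peaks. At the 5′ end the order differed: 83 shFto-only peaks (4.061%) began within 500 bases of the gene's start, against 10.34% of Dac51-only and 10.37% of shNC-only peaks and 4.837% of other shFto peaks. With the lists trimmed to equal length the 3′ shares were 33.94% for shFto-only, 26.04% for Dac51-only and 21.71% for shNC-only peaks, a like order. The intervals do not cover differences between libraries, and with 1 antibody library a condition those and the effect of the hairpin cannot be told apart. Distances are to the ends of RefSeq gene spans; exon and untranslated region classes were not used here. Blocks show that 192 of the peaks (9.37%) crossed a splice junction, against 16.65% of the other shFto peaks, which are longer.

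**Figure D3:**
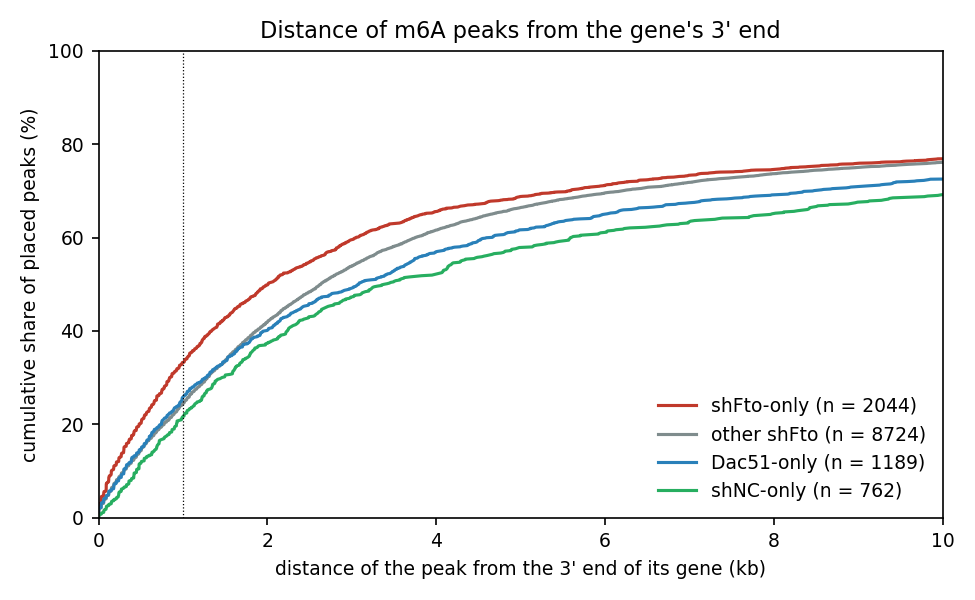
Cumulative share of placed peaks (y, in percent) by distance of the peak from its gene's 3′ end (x, in kb), for 4 classes of peaks. At 1 kb, the dotted line, the shFto-only curve stands at 33.27%, Dac51-only at 25.82%, shNC-only at 21.65% and other shFto peaks at 24.51%.

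Most shFto-only peaks lay in genes that had a peak elsewhere in another list. Of the 2049, 1204 (58.76%) lay in such genes, 1127 of them in genes of the Dac51 list and 1032 in genes of the shNC list, and 845 lay in 775 genes with no peak in either. The like share was 66.92% of Dac51-only and 67.5% of shNC-only peaks. Each class was set against the other 2 lists, which differ in size, with 6471 genes for shFto, 5963 for Dac51 and 5305 for shNC. The shFto-only share thus rests on the 2 shorter lists. Most genes had 1 shFto-only peak (1592), 180 had 2, and 31 had 3 or more. The most were in Dst, a cytoskeletal linker gene, with 5 beside 4 other shFto peaks, and in Brca2, the DNA repair gene, with 4 of its 11 shFto peaks. The 4 in Cttnbp2 had no peak of another list in the gene, and 3 of them stood close together (chr6:18433851-18434000, chr6:18434330-18434420 and chr6:18434569-18434959), at 14.6- to 16.3-fold. In Bptf, a chromatin remodelling gene, 3 were found. Dst RNA was 744 ± 29.2 CPM in shFto and 594 ± 56.8 CPM in shNC cells (SD, n = 3 each here and below). Brca2 RNA was 49.0 ± 3.43 CPM in shFto and 35.3 ± 2.51 CPM in shNC cells, and Cttnbp2 RNA 10.5 ± 0.815 CPM in shFto and 6.27 ± 1.07 CPM in shNC cells. These genes rose in shFto cells (log2 fold changes 0.32, 0.47 and 0.74; edgeR adjusted p = 0.00738, 0.00145 and 0.00359), while Bptf gave 0.07 (adjusted p = 0.545).

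The most significant peak was in Cnot6, which encodes a deadenylase of the CCR4-NOT complex that shortens poly(A) tails. It spanned chr11:49677367-49679965 in 2 blocks, with a log10 FDR of -31.2 and 2.84-fold enrichment, while the Dac51 list had 1 other, weaker peak in the gene (1.46-fold) and the shNC list none. Cnot6 RNA was 178, 218 and 149 CPM in shFto and 116, 132 and 103 CPM in shNC libraries. The groups did not overlap, which was so for 45.1% of all tested genes, and Cnot6 rose by 0.63 on the log2 scale (SE 0.113, edgeR adjusted p = 3.2e-04). Next came Abca12, a lipid transporter gene of the epidermis, with 36.9-fold enrichment in 4 blocks (chr1:71321843-71335697, log10 FDR -28.5). The gene had 2 weaker peaks in the Dac51 list (up to 4.69-fold) and none in the shNC list. Its RNA was 146, 133 and 140 CPM in shFto, against 102, 93.1 and 95.8 CPM in shNC cells (0.53, SE 0.0796, adjusted p = 5.94e-05).

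The strongest enrichment of any shFto-only peak was in Acer2 (chr4:86932131-86932490, log10 FDR -23.6), 34 bases from the gene's 3′ end, in a gene with no peak in the other lists. Acer2 RNA was 17.03, 18.8 and 15.1 CPM in shFto and 10.02, 14.4 and 16.1 CPM in shNC libraries, which overlap (0.32, SE 0.161, edgeR adjusted p = 0.133). Of the other 5 leading genes without a peak in either further list, Cacnb3, a calcium channel subunit gene, had 4.51-fold enrichment at chr15:98643372-98643581. Its RNA was 13.7, 14.9 and 15.4 CPM in shFto, against 7.29, 8.83 and 8.64 CPM in shNC cells, and rose by 0.82 (SE 0.152, adjusted p = 3.96e-04). Bsg, which encodes basigin, the chaperone of lactate transporters, had a peak of 60 bases at 1.28-fold (chr10:79711712-79711771, log10 FDR -18.1). Its RNA was 558, 583 and 601 CPM in shFto and 648, 675 and 797 CPM in shNC cells and fell by 0.28 (adjusted p = 0.0193), a call that ended without shFto replicate 1 (adjusted p = 0.118) or shNC replicate 3 (0.0766).

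The remaining 3 of these were Hspa9, a mitochondrial chaperone gene (1.66-fold, log10 FDR -21.6), Vwa9, an Integrator complex gene (6.38-fold, -19.7), and Alg8, a glucosyltransferase gene of N-glycan assembly (12.9-fold, -18). Their RNA log2 fold changes were -0.14, -0.11 and 0.17, with adjusted p-values of 0.176, 0.41 and 0.322. The peaks that completed the 10 most significant were in Lrrfip1, a nucleic acid-binding protein gene (2.04-fold, RNA -0.10, adjusted p = 0.39), and in Trappc5, a vesicle tethering gene (5.43-fold, RNA -0.18, adjusted p = 0.177; 0.0256 without shFto replicate 3), both with other peaks in all 3 lists. Of these 10 genes, 3 rose in RNA, 1 fell and 6 did not pass the test, where 32.8% of all tested genes passed.

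Among tested genes that carry shFto-only peaks, more rose than fell in shFto RNA. Of the 1803 genes, 1701 passed the filter on low counts, 102 did not, and 386 (22.7%) were higher and 208 (12.2%) lower in shFto at an edgeR adjusted p under 0.05. Over all 11718 tested genes the shares were 15.9% higher and 16.9% lower, 32.8% in all. The median log2 fold change was 0.08, against -0.003 over all tested genes. Among genes with a Dac51-only peak 17.3% were higher and 17.2% lower, and among those with a shNC-only peak 18.6% and 18.3%. Genes with a shFto peak but none that was shFto-only had 16.6% in either direction. The share was 24.7% higher and 11.8% lower for the 1017 tested genes with a peak in another list as well, and 19.7% and 12.9% for the 684 with none. Scaled by library totals, not TMM, 474 rose and 153 fell, so that 75.6% of the calls were rises, against 65.0%. All tested genes then had 20.3% higher and 13.5% lower. Without shFto replicate 1, 261 rose and 124 fell (15.3% and 7.27%, against 10.3% and 10.5% of all tested genes). Differences of at least 2-fold were found in 52 genes (3.06%), 33 higher and 19 lower, near the 3.25% of all tested genes (164 higher and 217 lower). The part of RNA level in which peaks were listed was not tested.

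**Figure D4:**
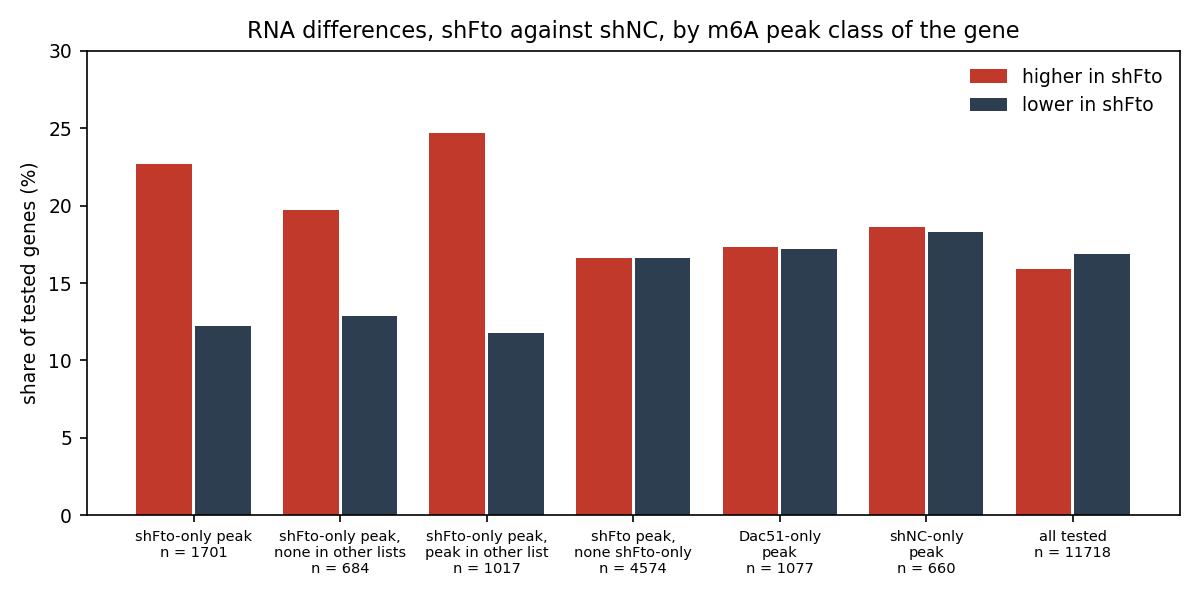
Share of tested genes (y, in percent) that were higher (red) or lower (dark) in shFto than in shNC RNA at an edgeR adjusted p under 0.05, by the m6A peaks of the gene; n is the number of tested genes. Genes with a shFto-only peak have 22.7% higher and 12.2% lower, against 15.9% and 16.9% of all tested genes.

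Trpm1, a cation channel gene of pigment cells, had the largest rise among those with at least 10 CPM and groups that did not overlap, and it had 2 shFto-only peaks, with none in the other lists. They lay at chr7:64217591-64219158 (2.20-fold, log10 FDR -11.6) and at chr7:64268890-64269130 (30.9-fold, -8.11), 642 bases from the gene's 3′ end. Its RNA was 259, 259 and 249 CPM in shFto, against 62.4, 54.0 and 65.8 CPM in shNC cells (2.08, SE 0.0871, edgeR adjusted p = 4.39e-12). Smad9 and Smad6, which encode an effector and an inhibitor of BMP signalling, followed. Smad9 was at 29.7, 24.1 and 32.6 CPM in shFto, against 6.53, 7.96 and 7.17 CPM in shNC cells (1.99, SE 0.148, adjusted p = 6.8e-09), and had 1 peak at 18-fold (chr3:54797444-54797593). Smad6 was at 26.9, 26.2 and 40.0 CPM in shFto, against 9.95, 10.98 and 9.90 CPM in shNC cells (1.60, SE 0.157, adjusted p = 4.43e-07). Of its 2 peaks, one began 26 bases from the gene's start (chr9:64021970-64022059, 6.86-fold, log10 FDR -1.82), 148 bases from a peak of another list. The other was at 8.57-fold (-2.68), and the Dac51 list also had a peak in the gene, at 12.7-fold. Ccdc141 (1.29) and Fam49a, which encodes a Rac1-binding protein (1.24), completed the 5 largest rises. Where RNA rose this much, a new mark and a mark listed because more RNA was there cannot be told apart. The part of RNA level was not tested.

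RNA was lower in shFto for other genes with a shFto-only peak. Prex1, a Rac activator gene, had 10.9, 9.33 and 9.57 CPM in shFto, against 28.6, 29.5 and 28.0 CPM in shNC cells (-1.53, SE 0.126, edgeR adjusted p = 3.57e-08). Its peak was at 14.1-fold (chr2:166567214-166567573, log10 FDR -5.69), with none in the other lists. Others were Cp, the ceruloplasmin gene (-1.20), Bcl9l, a beta-catenin coactivator gene (-1.09), and the neuropilin Nrp2 (-1.06), with peaks of 3.20-, 2.09- and 1.61-fold. Cp had no peak in the other lists. Bcl9l reached 22.8-fold in the Dac51 and 14.9-fold in the shNC list, and Nrp2 29.9- and 22.3-fold.

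**Figure D5:**
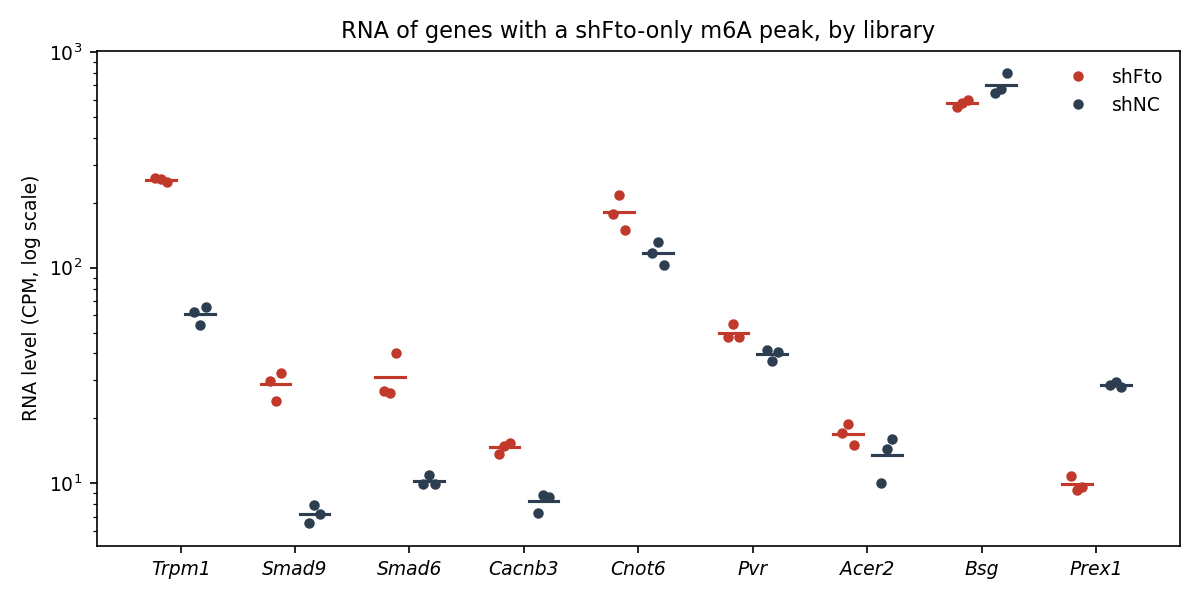
RNA level in CPM (log scale) of 9 genes with a shFto-only peak, for each of 3 shFto (red, left) and 3 shNC (dark, right) libraries; bars are means. Trpm1, Smad9, Smad6, Cacnb3, Cnot6 and Pvr lie higher and Bsg and Prex1 lower in shFto without overlap, whereas the Acer2 groups overlap. Groups without overlap were required by the rule that chose Trpm1, Smad9, Smad6 and Prex1, and were found for 45.1% of all tested genes.

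Across the whole shFto list, 1803 of 6471 genes with a peak (27.9%) carried a shFto-only one, which is the share to read the peak count of each gene list against. Of the 1803, 1028 also had a peak in another list, so a shFto-only peak need not be the only mark of its gene. The RNA counts of the lists are to be read against the 15.9% of all tested genes that were higher and the 16.9% that were lower. Of 33 BMP, TGF-beta and SMAD genes, 24 had a shFto peak and 9 (37.5%) a shFto-only one: Acvr2b, Smad2, Smad3, Smad6, Smad7, Smad9, Tgfb1, Tgfb3 and Tgif1. The RNA of 14 of the 29 tested genes of this list rose (48.3%, against 15.9% of all tested genes) and that of 3 fell (10.3%, against 16.9%), with a median log2 fold change of 0.25. The TGF-beta effector Smad3 rose (0.44, SE 0.102, edgeR adjusted p = 0.00268), with 52.1 ± 2.03 CPM in shFto and 38.4 ± 4.47 CPM in shNC cells (SD, n = 3 each) and a peak at 3.89-fold. Smad3 also had peaks of up to 25.1-fold in the Dac51 and 12.2-fold in the shNC list. The activin receptor gene Acvr2b fell (-0.90, adjusted p = 5.25e-04), with 7.14 ± 1.55 CPM in shFto and 13.6 ± 0.934 CPM in shNC cells and a peak at 5.52-fold in a gene otherwise without one. The ligand gene Tgfb1 had a peak at 8.57-fold. Its RNA, at 4.34 ± 0.172 CPM in shFto and 2.55 ± 0.509 CPM in shNC cells, passed the test (0.75, adjusted p = 0.0324), but not without shFto replicate 1 (0.118), shFto replicate 2 (0.0633), shNC replicate 1 (0.0958) or shNC replicate 3 (0.0784).

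Of 34 histone methyltransferase and demethylase genes, 29 had a shFto peak and 8 (27.6%) a shFto-only one, close to the share of all genes. The H3K4 demethylase genes Kdm5a and Kdm5c had peaks at 1.88- and 2.92-fold, that of Kdm5c over its transcription start, and the H3K36 methyltransferase gene Setd2 one at 2.78-fold. These genes also had peaks in the Dac51 and shNC lists, of up to 23.6- and 14.6-fold in Setd2. Their RNA log2 fold changes were 0.11 (adjusted p = 0.357), -0.26 (0.0274) and 0.13 (0.23). The Kdm5c call ended with library totals (0.0837), without shFto replicate 1 (0.147) and without shNC replicate 2 (0.179). In the list, 6 of 32 tested genes rose (18.8%, near the 15.9% of all tested genes) and 8 fell (25%, against 16.9%).

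Among 22 melanocyte lineage genes, 14 had a shFto peak and 3 (21.4%) a shFto-only one, and 11 of 19 tested genes rose in RNA (57.9%, against 15.9% of all tested genes) with none falling (against 16.9%). Besides Trpm1, the melanosome transporter gene Slc45a2 had 2 shFto-only peaks near its 3′ end, the stronger at 2.48-fold (chr15:11028488-11028756, log10 FDR -10.2), 387 bases from the nearest peak of another list. Slc45a2 RNA was 609 ± 3.94 CPM in shFto and 403 ± 7.64 CPM in shNC cells (0.60, edgeR adjusted p = 1.22e-05). Tyrp1 RNA was 6586 ± 345 CPM in shFto and 4962 ± 116 CPM in shNC cells (0.41, adjusted p = 0.00143).

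In the m6A machinery, 1 of the 7 writer genes with a shFto peak (14.3%), 1 of 2 erasers and 1 of 6 readers (16.7%) carried a shFto-only peak, each in a gene with peaks in the Dac51 and shNC lists too. The writer complex member Zc3h13 had 2, the stronger at 4.03-fold, the eraser Alkbh5 had 2, the stronger at 3.71-fold and 450 bases from the gene's end, and the reader Ythdf2 had 1 at 2.19-fold. None passed the RNA test (log2 fold changes -0.03, -0.09 and 0.17; adjusted p = 0.79, 0.455 and 0.123), though Ythdf2 passed with library totals (adjusted p = 0.047) and the sign of Zc3h13 turned there (0.020) and without shNC replicate 2 (0.042). Of the listed genes, 1 of 10 writers rose (10%) and 2 fell (20%), and 2 of 12 readers rose (16.7%) and 3 fell (25%). Over all tested genes 15.9% were higher and 16.9% lower. Of the 2 erasers 1 fell, which is Fto.

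Of 26 glycolysis genes, the theme of the study's title, 11 had a shFto peak and 2 (18.2%) a shFto-only one, while 14 fell (53.8%, against 16.9% of all tested genes) and 4 rose in RNA (15.4%, near the 15.9% of all tested genes). The aldolase gene Aldoc had a peak at 2.21-fold with none in the other lists. Its RNA was 20.4 ± 3.16 and 24.3 ± 6.02 CPM in shFto and shNC cells (-0.27, adjusted p = 0.21), and passed without shNC replicate 1 (0.0268). The lactate transporter gene Slc16a1 had one at 1.55-fold, and its RNA rose (0.56, adjusted p = 1.66e-04; 129 ± 15.9 CPM in shFto and 87.8 ± 6.12 CPM in shNC cells). Slc16a1 also had peaks of up to 2.33-fold in the Dac51 and 3.47-fold in the shNC list. Of 20 hypoxia genes, 3 of the 12 with a shFto peak had a shFto-only one, and 3 genes of the list rose (15%) and 8 fell (40%), against 15.9% and 16.9% of all tested genes. The oxygen sensor Egln1 fell (-0.85, adjusted p = 1.66e-06; peak 1.42-fold), and had further peaks of up to 10.0-fold in the Dac51 and 6.85-fold in the shNC list. Car9, which encodes a carbonic anhydrase, had a peak at 1.57-fold and gave -0.57 (adjusted p = 0.0623). The MYC antagonist Mxi1, also in the MYC list, had a peak at 1.95-fold and gave -0.28 (adjusted p = 0.0303), a call that ended without any 1 of 5 libraries, shFto replicate 2 being the exception, and with library totals. Car9 passed when all genes were tested, with no filter (0.0241), without shFto replicate 3 (0.0154) or without shNC replicate 1 (0.0121).

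Among AP-1 and C/EBP factors, Cebpb and Fos had a shFto-only peak (2 of the 12 with a shFto peak), and Jun and Junb had none. The Cebpb peak (chr2:167689004-167689212, 2.11-fold, log10 FDR -3.73) began 89 bases from the gene's start and lay 624 bases from the nearest peak of another list. Both genes had peaks in the other lists: Cebpb at 32.7-fold (Dac51) and 19.0-fold (shNC), and Fos at 8.92- and 2.82-fold. Cebpb RNA was 10.7, 10.0 and 14.5 CPM in shFto and 17.9, 12.1 and 16.1 CPM in shNC libraries, which overlap (-0.37, SE 0.172, edgeR adjusted p = 0.107), and passed without shFto replicate 3 (0.0161) or shNC replicate 2 (0.0351). Fos RNA was 5.29 ± 0.856 and 2.69 ± 0.743 CPM in shFto and shNC cells (0.96, adjusted p = 0.00843), with a peak at 4.46-fold. Jun fell (-0.59, adjusted p = 1.94e-04), and Junb gave 0.11 (adjusted p = 0.583), negative without shFto replicate 3 (-0.099). In this list 3 of 13 tested genes rose and 3 fell (23.1% each, against 15.9% and 16.9% of all tested genes).

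Of 10 checkpoint ligand genes, 4 had a shFto peak and 2 of these, Pvr and Cd47, were shFto-only with none in the other lists. Pvr encodes CD155, a ligand of the T cell receptors TIGIT and CD226. Its peak spanned 2 blocks (chr7:19904917-19905801, 3.69-fold, log10 FDR -15.4). Pvr RNA was 47.6, 54.5 and 47.5 CPM in shFto, against 41.3, 36.9 and 40.7 CPM in shNC cells (0.33, SE 0.0988, edgeR adjusted p = 0.0148), a call that ended without shFto replicate 2 (0.0733) or shNC replicate 2 (0.0659). Cd47, the "do not eat me" ligand gene, had a weak peak (1.78-fold, log10 FDR -2) and gave 0.15 in RNA (adjusted p = 0.441). In that list 2 of 5 tested genes rose (40%, against 15.9% of all tested genes) and none fell (against 16.9%). None of the 4 class I antigen presentation genes with a shFto peak had a shFto-only one, while 7 of 16 tested genes of the list rose (43.8%, against 15.9% of all tested genes) and 1 fell (6.25%, against 16.9%).

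Feedback inhibitors of growth factor signalling had 3 genes with a shFto-only peak among 17 with a shFto peak, and 5 of 19 tested genes rose (26.3%) and 3 fell (15.8%), against 15.9% and 16.9% of all tested genes. The ERK phosphatase gene Dusp6 had 2, the stronger at 2.26-fold with a log10 FDR of -10 and 119 bases from the gene's start, and rose (0.30, adjusted p = 0.00712). Spry4 rose (1.14, adjusted p = 2.55e-04), with 9.47 ± 1.30 CPM in shFto and 4.26 ± 0.725 CPM in shNC cells and a peak at 8.14-fold. Errfi1, an EGFR inhibitor gene, had a peak at 2.29-fold and gave -0.25 (adjusted p = 0.161). In the p53 list the share was 3 of 10, and 5 of 18 tested genes rose (27.8%, against 15.9%) and 1 fell (5.56%, against 16.9%). Mdm4, which encodes a p53 inhibitor, passed (0.23, adjusted p = 0.0367; peak 1.86-fold) but not without shFto replicate 1 (0.115), shFto replicate 2 (0.0725), shNC replicate 1 (0.0944) or shNC replicate 3 (0.0971). Sesn1 (peak 5.03-fold, log10 FDR -9.86) and the phosphatase gene Ppm1d (4.07-fold) gave 0.24 and 0.21 (adjusted p = 0.236 and 0.129). In the MYC list it was 2 of 7, and no gene rose (against 15.9% of all tested genes) and 1 of 10 fell (10%, against 16.9%). Mlxip, which encodes a glucose-responsive transcription factor that pairs with Mlx, had a peak at 2.04-fold, and its RNA gave -0.02 (adjusted p = 0.886). All genes with a shFto-only peak in the feedback, p53 and MYC lists also had a peak in another list. In the Dac51 and shNC lists these reached 52.8- and 26.9-fold for Ppm1d, 16.9- and 13.6-fold for Sesn1, and 20.9- and 9.44-fold for Mdm4. Mxi1 had only a weaker one, at 1.47-fold in the Dac51 list.

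Zinc finger genes of the Zfp series were frequent among the hosts. They made 104 of the 1803 genes (5.77%), against 4.31% of genes of the shFto list, 3.09% of genes with a Dac51-only and 3.69% of those with a shNC-only peak. Of 103 tested, 10 rose (9.71%) and 8 fell (7.77%), both below the shares of all tested genes (15.9% and 16.9%), with a median log2 fold change of 0.15. Many Zfp genes are near-copies of each other, so single members are uncertain. By chromosome, the shFto-only share of shFto peaks was 28.76% on the X (65 of 226) and 25.56% on chromosome 18 (91 of 356), and between 15.07% and 21.46% on the others.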

How the data were processed

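RNA of 6 B16-OVA libraries and m6A peaks of 3 antibody libraries were used. Per the labels' protocols, poly(A) RNA was fragmented and enriched with an m6A antibody kit, and libraries were made with a stranded total RNA kit. The submitters' processing notes list MACS2 2.1.3, STAR 2.7.0f, Bowtie2 2.3.5 and Trim Galore 0.6.0, beside Picard and deepTools, and the build mm10. The deposited m6A peak lists carry the name of another peak caller, exomePeak, with no version given. The roles of the noted tools, the read counter and its strand setting, and the peak thresholds are not given in the sources used here. Raw counts per gene are what the authors deposited for RNA. The deposited peak lists hold a p-value per peak, log10 scores of p and FDR, and the ratio of antibody to input as a fold enrichment.

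Blocks were compared base by base on the same strand (Python 3.11.15, pandas 2.3.3, NumPy 2.4.6, SciPy 1.17.1, Matplotlib 3.10.9). Genes were placed by symbol or synonym on RefSeq spans of GRCm38.p6 (99.76% of the shFto-only peaks). Expression was tested by the quasi-likelihood test of edgeR 4.0.16 under R 4.3.3, with TMM scaling, its default filter and Benjamini-Hochberg adjustment over 11718 genes, with DESeq2 1.42.0 as an alternative. Both steps were tested on simulated data.

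Named genes were the 10 most significant peaks, the 6 most significant in genes without other peaks, the 5 largest RNA rises and falls at 10 CPM or more without overlap, 3 per list, the 4 with the most peaks, and Fto, Jun, Junb and Cebpb. Predicted genes were left out, and some items that the rules name are not reported here. Members, lists and rules were chosen with earlier results of these data known; genes at transcription starts and microRNA hosts, and the distances to gene ends, were chosen after their values were seen. The planned motif search over whole peaks and the exon classes were not run, because no genome sequence or exon annotation was used here.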

Additional observations from a re-analysis of the deposited data

How the results depend on the processing

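The number of shFto-only peaks stayed between 1426 and 2557 under the other overlap rules and a log10 FDR of -3 or lower in all lists, but was 1043 with that threshold in the shFto list alone and 832 with lists trimmed to equal length. The share in genes with a peak of another list was 66.95% when 50% of a peak had to be covered, 56.4% when peaks within 100 bp counted as overlapping, and 53.16% at the stricter threshold in all lists. The share within 1 kb of the 3′ end, whose alternatives were chosen after seeing the data, was 35.48% at the stricter shFto threshold and 31.26% by peak midpoint. Genes higher and lower in RNA numbered 214 and 108 at the stricter shFto threshold, where fewer genes enter. Leaving out 1 library gave 261 to 439 higher, 124 to 249 lower and medians of 0.064 to 0.089. The median was 0.13 with library totals.

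Whether the replicate numbers pair the libraries is not known. Same-numbered libraries deviated together with correlations of 0.02, 0.05 and -0.01, within the range of differently numbered ones (-0.0842 to 0.0606). Such values cannot show whether libraries were handled as pairs. With the replicate block, 376 genes were higher and 194 lower, and the median was 0.08. DESeq2 gave 384 and 202. Of the 540 values of named genes under these alternatives, 504 kept direction and side of the threshold, 8 newly passed, 21 no longer passed and 7 turned. With library totals, Zc3h13 turned to 0.020 and Mlxip to 0.034. Leaving out 1 library gave -0.11 to 0.042 for Zc3h13, -0.079 to 0.032 for Mlxip and -0.099 to 0.22 for Junb. The cause was not tested. One antibody library a condition and an unknown read depth limit every peak comparison. The motif search over whole peaks was not run.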
